A study of Mus musculus with 9 samples.

Results

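The data described here are the regions called as bound by SUZ12 in mouse T-cell lymphoma cells, read gene by gene. All distinct peaks of the SUZ12 list on chromosomes 1 to 19, X and Y were taken, which gave 11100 of the 282301 peaks in the 7 lists of the series. The cells came from the thymus of C57BL/6J mice and were lymphoma cells driven by MYCN, the gene that encodes N-MYC. Chromatin was profiled by ChIPmentation, in which immunoprecipitated chromatin is tagged with adapters by the Tn5 enzyme before the DNA is released. SUZ12 was precipitated with the rabbit monoclonal antibody clone D39F6. The other 6 lists were from EZH2, H3K27me3, H3K4me3, H3K27ac, N-MYC and p300 in cells of the same description, and 2 input libraries completed the 9 samples. Each antibody had 1 library, so no value below has a replicate check and no test between conditions could be made. All cells carried the MYCN lymphoma, with no normal thymus beside them, and the promoter that drives MYCN, the number of animals and any pooling are not given in the sources used here.

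SUZ12 is a core subunit of Polycomb repressive complex 2 (PRC2), in which it holds the complex together and is needed for the activity of the methyltransferase EZH2. PRC2 places methyl groups on lysine 27 of histone H3, and the trimethylated form, H3K27me3, marks genes kept silent through development, among them the homeobox genes. H3K4me3 and H3K27ac are marks of active gene starts, p300 is an acetyltransferase that places H3K27ac, and N-MYC is a transcription factor that binds the E-box CACGTG. In vertebrates PRC2 is known to gather at CpG islands, stretches rich in the dinucleotide CG.

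The defining markers of T cells carried active marks. All 8 T-cell markers (Cd3d, Cd3e, Cd3g, Cd247, Lck, Tcf7, Bcl11b and Cd2) had H3K4me3 and H3K27ac over the gene (beside 54.8 and 59.1% of all protein-coding genes). None of them had SUZ12 and 1, Bcl11b, had H3K27me3, beside 15.7 and 32.0% of all protein-coding genes. SUZ12 lay at 2 of 5 B-cell markers, 1 of 5 myeloid markers, 0 of 3 erythroid, 2 of 5 thymic epithelial, 2 of 4 fibroblast and 0 of 4 endothelial markers. With so few markers per cell type, these SUZ12 counts cannot be told apart from the 15.7% of all protein-coding genes. The 3 erythroid markers, Gata1, Klf1 and Epor, all had both H3K4me3 and H3K27ac. Cd79a, a B-cell receptor chain, had H3K4me3 at 4.74-fold at the start. Over Cd79a or within 1 kb of it, the highest H3K4me3 fold was 32.5. In bulk chromatin, a region bound in few cells and a region bound weakly in all cells cannot be told apart.

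The sequences in which the findings can be read are of 2 kinds. The first are microRNAs whose genes lay under SUZ12 at every copy, and they are shown because each family is spread over several chromosomes. Mature sequences are from RefSeq with build GRCm38.p6, printed 5′ to 3′, with the seed (bases 2 to 8) in capitals.
mmu-miR-196a-5p: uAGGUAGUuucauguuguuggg
mmu-miR-196b-5p: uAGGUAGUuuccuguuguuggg
mmu-miR-9-5p: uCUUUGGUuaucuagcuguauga
The seed AGGUAGU is shared by miR-196a and miR-196b, and 3 of the 3 genes with that seed in the table had SUZ12. For the seed CUUUGGU of miR-9 it was likewise 3 of 3 genes.

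The second kind are promoters, shown so that the CG content before genes with and without SUZ12 can be compared. Each is the stretch of 250 bases just before 1 listed start of the gene, on the gene's strand, from RefSeq with build GRCm38.p6, with every CG in capitals. Sp9 (chr2:73271676-73271925, plus strand) and Lhx9 (chr1:138842445-138842694, minus strand) are the genes of highest SUZ12 enrichment at the start, and Hoxc4 (chr15:103034145-103034394, plus strand) lies in the widest SUZ12 domain. Rpl19 (chr11:98026460-98026709, plus strand) and Rpl35a (chr16:33056203-33056452, plus strand) encode ribosomal proteins, had no SUZ12 peak, and are the members of that list with the highest H3K4me3 enrichment.
Sp9: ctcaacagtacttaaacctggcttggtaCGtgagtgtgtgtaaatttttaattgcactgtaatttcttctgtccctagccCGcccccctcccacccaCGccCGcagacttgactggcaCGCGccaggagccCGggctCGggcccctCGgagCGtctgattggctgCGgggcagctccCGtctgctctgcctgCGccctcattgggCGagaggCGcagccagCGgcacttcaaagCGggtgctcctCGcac
Lhx9: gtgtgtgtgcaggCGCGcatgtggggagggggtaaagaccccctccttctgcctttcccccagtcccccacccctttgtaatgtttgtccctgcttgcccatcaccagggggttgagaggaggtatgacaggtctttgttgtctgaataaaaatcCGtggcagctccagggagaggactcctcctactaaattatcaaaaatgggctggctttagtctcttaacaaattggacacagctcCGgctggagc
Hoxc4: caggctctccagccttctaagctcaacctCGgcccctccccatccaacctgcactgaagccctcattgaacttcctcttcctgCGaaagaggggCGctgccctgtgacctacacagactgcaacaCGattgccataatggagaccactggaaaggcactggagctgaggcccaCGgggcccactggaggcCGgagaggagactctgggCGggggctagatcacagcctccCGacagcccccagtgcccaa
Rpl19: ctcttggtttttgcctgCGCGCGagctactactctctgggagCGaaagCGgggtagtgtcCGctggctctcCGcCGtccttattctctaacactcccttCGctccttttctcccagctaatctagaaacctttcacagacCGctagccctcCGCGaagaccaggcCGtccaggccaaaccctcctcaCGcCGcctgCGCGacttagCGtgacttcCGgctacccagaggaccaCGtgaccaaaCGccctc
Rpl35a: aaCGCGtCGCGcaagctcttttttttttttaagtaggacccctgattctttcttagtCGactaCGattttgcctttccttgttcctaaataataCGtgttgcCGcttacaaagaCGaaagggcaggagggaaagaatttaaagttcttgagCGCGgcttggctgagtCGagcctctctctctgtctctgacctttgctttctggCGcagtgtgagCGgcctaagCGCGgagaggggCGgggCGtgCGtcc
The stretch held 18 CG in Sp9, 4 in Lhx9 and 8 in Hoxc4, against 21 in Rpl19 and 19 in Rpl35a. The GC content was 62.4% in Sp9, 53.6% in Lhx9, 62.0% in Hoxc4, 60% in Rpl19 and 51.2% in Rpl35a. A high count of CG thus stood before Sp9, with SUZ12, and before Rpl19 and Rpl35a, without it. Lhx9 and Hoxc4, with SUZ12, had fewer.

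The SUZ12 peaks ran from many short, weak sites to a few very long ones. Fold enrichment, the deposited ratio of a peak's summit over the background, had a median of 3.99, with 3.19 at the 10th and 7.31 at the 90th percentile. Peak width had a median of 453 bp and reached 100916 bp. The 3217 peaks under 300 bp were 28.98% of the list and had a median fold of 3.50. The 163 peaks of 10 kb or more were 1.47% of the list, held 18.5% of the 15.2 Mb under SUZ12 and had a median fold of 12.4. Peaks of 3 to 10 kb, 1229 in number, held a further 39.2% of that length at a median fold of 8.21. Wide peaks were thus also the more enriched ones, although a long peak has more positions from which its summit is taken.

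The strongest single peaks lay over genes of transcription factors. The highest fold, 22.2, belonged to a peak of 23647 bp over Lbx1 (chr19:45221119-45244765), a homeobox gene of muscle and spinal cord precursors. The next was over Sp9 at 21.2, followed by a peak over Tlx2 and its neighbour Dqx1 at 20.1, Lhx9 at 19.9 and Irx5 at 19.4. Lbx1, Tlx2 and Irx5 are named after their values were seen, because they have no listed start and so fell outside the ranking of gene starts.

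Gene starts took up a small part of the genome and a large part of the peaks. A start window of 1 kb on either side of a listed start was used, and 17491 of 21883 protein-coding genes had a listed start. Of the SUZ12 peaks, 3154 reached such a window, which was 28.4% (95% Wilson interval 27.6 to 29.3%), while the windows made up 1.38% of the annotated span. A further 4231 peaks (38.1%) lay elsewhere over a protein-coding gene, which covered 37.2% of the span. The remaining 3715 (33.5%, interval 32.6 to 34.4%) lay outside protein-coding genes, which was 61.4% of the span. No start on chromosome 18 was used here, so its 316 peaks count in the other 2 classes. Peaks at starts were the widest, with a median of 956 bp and a median fold of 4.66, against 424 bp and 3.91 in the rest of genes and 366 bp and 3.84 outside. A peak that reached a window by 1 bp was placed at the start, so wide peaks enter this class more readily. With the summit required inside the window, the share at starts was 23.2%. Wilson intervals here cover counting error only, and neighbouring peaks are not independent.

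The SUZ12 list was less focused on starts than that of its partner. EZH2 had 49.8% of 18730 peaks at starts (49.1 to 50.6%) and 20.3% outside genes, and H3K27me3 had 4.89% of 123056 peaks at starts and 52.9% outside. The SUZ12 shares lay between those of the enzyme and of the mark it places, and the 3 intervals for starts did not overlap. The lists differ in antibody, library and perhaps depth, whose part in this was not tested.

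At the level of genes, 2232 of the 17491 with a listed start had SUZ12 in the start window, a background share of 12.8%. Counted over the whole gene and 1 kb on either side, it was 3430 of all 21883 protein-coding genes, a background share of 15.7%. Among the 2232 genes, 180 (8.06%) shared such a peak with another gene, and 781 (35.0%) had at least 2 peaks in the window. The highest fold of any peak in the window had a median of 5.71 over the 2232 genes, 10.6 at the 90th percentile and 21.2 at most. Genes with SUZ12 at the start were long, with a median of 33.2 kb against 16.9 kb over all genes with a listed start. A missing peak means that none was called, since the list holds only peaks above the authors' threshold.

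Homeobox genes, which encode DNA-binding factors of body patterning and organ identity, formed the group with the fullest SUZ12 occupancy. Of 164 genes in 6 homeobox lists, 151 carried SUZ12 (92.1%, interval 86.9 to 95.3%), beside the 15.7% of all protein-coding genes. At the start it was 100 of 111 (90.1%), beside 12.8%, and the median start fold was 11.4, above the 90th percentile of 10.6 over all SUZ12 starts. All 14 Nkx genes and all 12 LIM homeobox genes carried SUZ12, as did 8 of 9 Pax genes, with Pax4 as the exception, and 16 of 18 genes of the Irx, Dlx and sine oculis families, with Irx6 and Six5 as the exceptions. H3K27me3 was called over all 14 Nkx, all 12 LIM homeobox and all 9 Pax genes, beside 32.0% of all protein-coding genes, and EZH2 over all 14, all 12 and 8 of 9, beside 49.2%. These lists, like the ones below, were drawn up with earlier results of these data known, so the counts describe them and are no independent evidence.

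Single members show how strong this occupancy was. Among the LIM homeobox genes, which take part in motor neuron and limb patterning, the start folds were 19.9 at Lhx9, 17.6 at Isl2, 15.8 at Lhx1 and 14.9 at Lhx4. Nkx2-4, Nkx2-3 and Nkx2-5, the last a cardiac factor, had 18.1, 17.1 and 15.8, and Nkx1-1 had 13.9. Pax2 of the kidney, Pax6 of the eye, Pax7 of muscle stem cells and Pax5 of B cells had 16.7, 14.9, 14.3 and 11.2. Dlx1 and Dlx2 both read 12.1, from a domain over the pair, and Six3 and Six4 read 11.5 and 10.8. Among the 72 other homeobox genes 64 carried SUZ12, with start folds of 19.2 at Evx2, 17.4 at Hmx2 and Hmx3 and 15.7 at Shox2. The bHLH gene Hand1 stood in this list as well as in the bHLH list.

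Other families of developmental transcription factors carried SUZ12 at 114 of 184 genes (62.0%, interval 54.8 to 68.7%), beside 15.7% of all protein-coding genes. At the start it was 78 of 137 (56.9%), beside 12.8% of all genes with a listed start, with a median start fold of 8.42. The shares differed from family to family. Zic and Gli factors of neural and hedgehog patterning had SUZ12 at 10 of 11 genes, GATA factors at 5 of 6, Sox factors at 14 of 19 and neural and mesodermal bHLH factors at 28 of 42. T-box factors followed with 11 of 17 and forkhead factors with 26 of 44. Nuclear receptors, the ligand-controlled factors, had the lowest share of these families, with 20 of 45.

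Genes of these families with high start folds spanned many organs. Sox21 and Sox14 of the nervous system had start folds of 18.2 and 13.1, Sox12 9.77 and Sox1 9.12. Tbr1 of the cerebral cortex had 18.8, Tbx1 of the pharynx 15.02 and Eomes, shared by early embryo and cytotoxic lymphocytes, 11.1. The forkhead genes Foxd1, Foxi3, Foxl2 and Foxc1 had 18.1, 16.9, 16.7 and 15.5. Zic1 and Zic4, a divergent pair, both read 11.9, and Zic5 read 11.4. Among nuclear receptors Nr2f1, Nr2e1, Nr5a2 and Nr6a1 lay between 11.6 and 12.8. Gata4, a heart and gut factor without a listed start, had a gene fold of 16.6, and Gata2 of blood stem cells had a start fold of 11.3.

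Signalling genes were occupied about as often as these factors. SUZ12 lay at 109 of 172 genes (63.4%, interval 55.95 to 70.2%), beside 15.7% of all protein-coding genes. At the start it was 75 of 130 (57.7%), beside 12.8% of all genes with a listed start. Ligands of the Wnt family led with 17 of 19 genes and a median start fold of 9.33, among them Wnt11 at 11.98, Wnt1 at 11.8 and Wnt6 at 10.5. Their Frizzled receptors had 7 of 10, with Fzd4 at 11.98, and the secreted Wnt inhibitors had 7 of 10 at lower folds, from 3.50 at Wif1 to 7.62 at Frzb. Of the hedgehog ligands and receptors 8 of 10 carried SUZ12, with Ihh at 9.22, Dhh at 9.16 and Smo, the signal transducer, at 8.17. The lowest shares were those of BMP and GDF ligands, 11 of 27, and of semaphorins, 9 of 20.

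Ligands and their inhibitors were both among the occupied genes. BMP antagonists had SUZ12 at 8 of 13 genes, beside 15.7% of all protein-coding genes. Chrd (chordin) had a start fold of 11.5, while Nodal, a ligand of the early embryo, had 10.02. FGF ligands had 13 of 22, with Fgf9 at 14.6 and Fgf11 at 10.5. The Notch ligands Jag1 and Dll4 had 10.4 and 7.68, and 7 of 11 Notch ligands and receptors carried SUZ12. Those 7 were Dlk1, Dlk2, Dll1, Dll3, Dll4, Jag1 and Jag2, and the receptors Notch1, Notch2, Notch3 and Notch4 had none. Ephrins and Eph receptors, which guide axons and vessels, had 17 of 22, with Efna1 at 12.1 and Epha7 at 11.6. Aldh1a2, which makes retinoic acid, had 13.7, and Cyp26a1, which breaks it down, had 7.68.

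**Figure D1:**
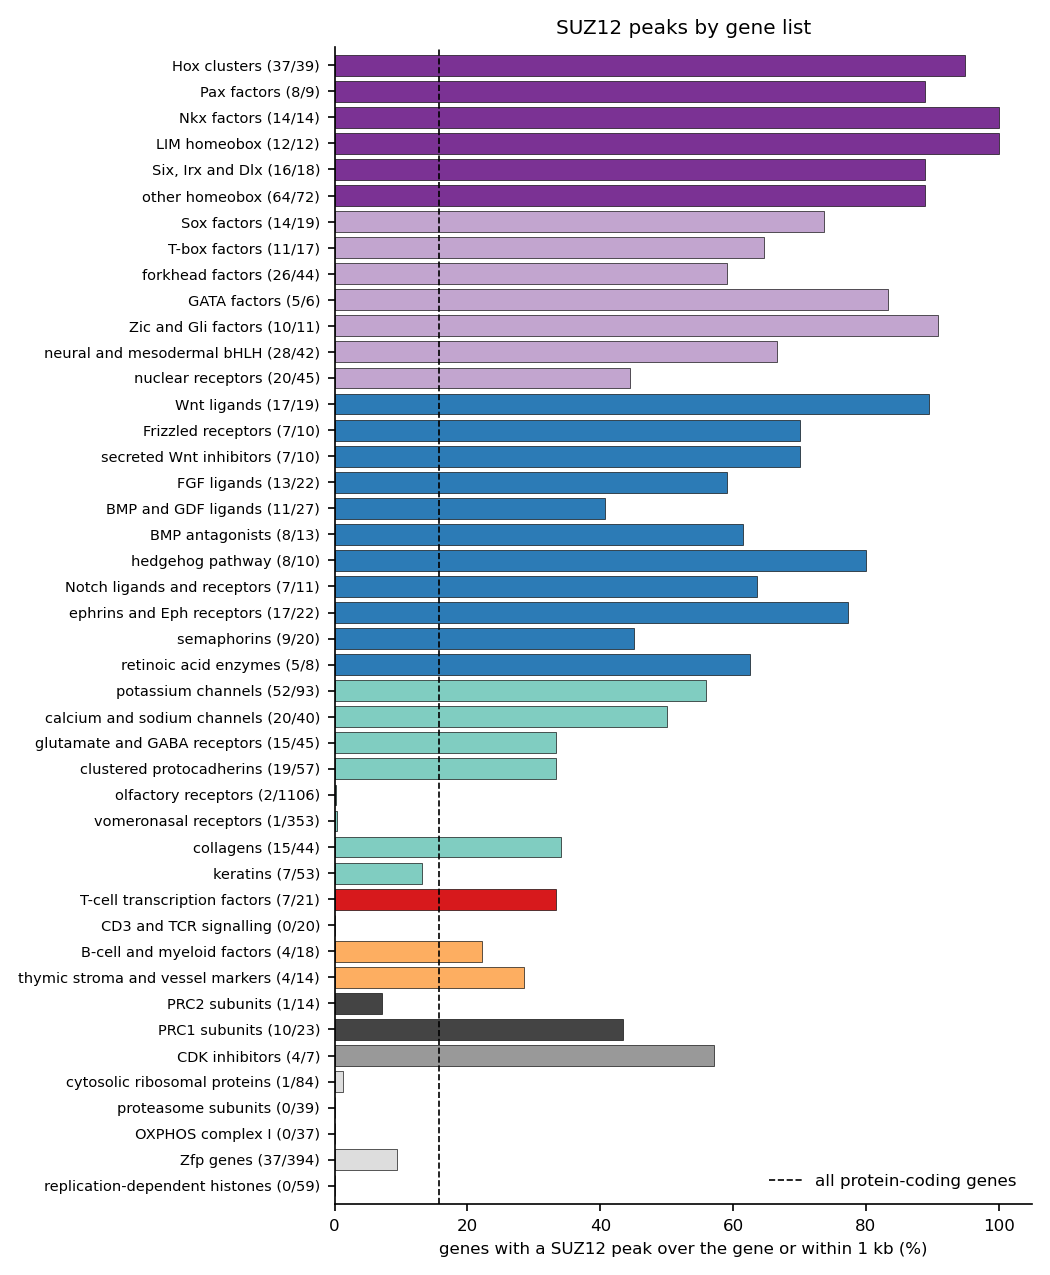
Share of the genes of each list with a SUZ12 peak over the gene or within 1 kb, with members and list size in parentheses and colours for groups of lists. The dashed line is the share of all protein-coding genes, 15.7%. Homeobox lists lie at 88.9% or above, and the housekeeping, histone, sensory receptor and CD3 lists lie at or near 0.

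Genes of channels, receptors, matrix and filaments showed shares above, near and far below the 15.7% of all protein-coding genes. Potassium channel subunits carried SUZ12 at 52 of 93 genes, calcium and sodium channel subunits at 20 of 40 and glutamate and GABA receptor subunits at 15 of 45. Their median start folds of 5.21, 6.70 and 4.96 were below that of the homeobox lists. Among channel genes with a listed start, the start folds of Kcna7, Cacnb3 and Kcnn1 were 12.2, 10.7 and 10.7. Collagens had 15 of 44, with a start fold of 7.62 at Col23a1. Keratins had 7 of 53 (13.2%), near the share of all protein-coding genes, with 7.69 at Krt8. Olfactory receptors, the largest gene family of the mouse, had SUZ12 at 2 of 1106 genes, Olfr94 at 4.87 and Olfr1368 at 3.74. Vomeronasal receptors had it at 1 of 353, Vmn2r87, with a gene fold of 4.48.

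The clustered protocadherins, cell adhesion proteins encoded in 3 arrays on chromosome 18, are a case in which a count of genes misleads. Of 57 genes 19 counted as carrying SUZ12, all in the gamma array, and all through a single peak of fold 5.08 and 2.45 kb. The long transcripts of that array overlap each other and share their last part. The alpha and beta arrays had no peak.

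In the T lineage SUZ12 was listed at some transcription factors and at none of the receptor genes. None of 20 genes of CD3 and T-cell receptor signalling carried SUZ12, beside 15.7% of all protein-coding genes. Among them were Cd4, Cd8a, Cd28, Zap70 and Lat. Cd8a, Cd8b1, Dntt, Rag1 and Rag2 had H3K27me3 there, at 8.29-, 5.47-, 5.56-, 13.9- and 10.7-fold, without a SUZ12 call. Of 21 T-cell transcription factors 7 carried SUZ12, among them Eomes at 11.1, Id2 at 10.6, Lef1 at 7.85, Gata3 at 4.41 at the start and 7.45 over the gene, Satb1 at 3.87 and Runx3 at 3.72. Of these, Lef1, Gata3, Satb1, Runx3 and Id2 also had H3K4me3, at 39.4-, 48.9-, 29.9-, 22.5- and 14.6-fold, whereas Eomes had none. The other 14 (Bcl11b, Ets1, Foxp3, Id3, Ikzf1, Myb, Notch1, Runx1, Tbx21, Tcf12, Tcf3, Tcf7, Tox and Zbtb7b) had no SUZ12 peak, and 13 of them, all but Foxp3, had H3K4me3.

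Factors of other blood lineages and of the thymic stroma were occupied in part. Gata2, Pax5, Cebpa of myeloid cells and Ebf1 of B cells had SUZ12 at start folds of 11.3, 11.2, 10.5 and 7.56, and 14 other genes of that list, such as Spi1 and Irf8, had none. In the stroma and vessel list 4 of 14 carried it, beside 15.7% of all protein-coding genes. Pdgfra, the receptor of fibroblasts and mesenchyme, had a start fold of 17.5, Krt8 and Epcam of epithelium had 7.69 and 3.87, and Col1a1 had 4.61 over the gene.

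The genes of the Polycomb system itself carried SUZ12 in part, beside 15.7% of all protein-coding genes. Of 14 PRC2 genes 1 (7.14%), the accessory factor Epop, carried SUZ12, at 4.30 over the gene. In so short a list this count cannot be told apart from the share of all genes. The core genes Suz12, Ezh2, Eed, Rbbp4 and Ezh1 had none and had H3K4me3 at 35.8-, 34.0-, 32.0-, 41.1- and 32.4-fold. The other PRC2 genes without SUZ12 were Aebp2, Ezhip, Jarid2, Lcor, Mtf2, Phf1, Phf19 and Rbbp7. Of 23 genes of Polycomb repressive complex 1 (PRC1), the partner that reads H3K27me3 and compacts chromatin, 10 carried SUZ12. Cbx8, a chromodomain reader, had 18.4 from a peak that lay almost wholly upstream of the gene. Bmi1 had 16.5, Scmh1 9.03 and Cbx7 4.77. All 23 PRC1 genes had H3K4me3 over the gene, beside 54.8% of all protein-coding genes.

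Inhibitors of cyclin-dependent kinases, among them classical Polycomb targets, carried SUZ12 at 4 of 7 genes, beside 15.7% of all protein-coding genes. The list is short and was drawn up with earlier results known, so the count only describes it. Cdkn2a, which encodes p16 and p19ARF, had 11.0, Cdkn1a (p21) 5.85, Cdkn2b (p15) 5.71 and the imprinted Cdkn1c 5.34 over the gene. Cdkn2a also had H3K4me3 at 24.5-fold, and Cdkn1a and Cdkn2b had it at 10.9- and 5.96-fold. Cdkn1b, Cdkn2c and Cdkn2d had no SUZ12 peak and had H3K4me3 at 26.8-, 44.3- and 33.1-fold.

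Housekeeping genes formed the opposite pole. Of 129 ribosomal, proteasome and complex I genes with a listed start none had SUZ12 there (interval 0 to 2.89%), beside 12.8% of all starts. None of 59 replication-dependent histone genes carried SUZ12, beside 15.7% of all protein-coding genes. Zinc-finger genes with a Zfp symbol, a family that grew by duplication, had 37 of 394, with Zfp423 at 10.4 and Zfp277 at 10.3.

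A search over all gene symbols was made after values were seen. It counts the same SUZ12 start calls, in part at the same genes as the lists above, and is no independent evidence. Over all genes with a listed start the share was 12.8%. Among 194 symbol stems with 10 or more genes, 9 had SUZ12 at the start of 50% or more of their genes and 76 at none. The 9 were Nkx with 11 of 11, Wnt with 13 of 15, Cacna with 8 of 10, Kcnk with 8 of 11, Sox with 8 of 13, Fgf with 8 of 16, and Adamts, Itga and Prdm with 5 of 10 each. Itga encodes integrin alpha chains, Adamts secreted proteases and Prdm a family of zinc-finger factors, and Prdm had the highest median fold of the 9 at 12.6.

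Ranked by the start window, the strongest genes were Sp9 at 21.2, Lhx9 at 19.9, then Evx2 with Hoxd3, Hoxd8, Hoxd9, Hoxd10, Hoxd11, Hoxd12 and Hoxd13 at 19.2. The last 8 share 1 peak of 64.8 kb and are 1 measurement. Skor1, a corepressor of the nervous system, had 19.1, Tbr1 18.8, Cbx8 18.4 and Tal1 18.3. The Cbx8 peak lay almost wholly upstream of the gene. Sp9 had EZH2 at 28.8-fold, the maximum of that list, and H3K27me3 at 12.03-fold. Tbr1 had EZH2 at 26.2-fold and H3K27me3 at 13.6-fold. Evx2 had the reverse order, with EZH2 at 10.2-fold and H3K27me3 at 25.5-fold.

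Peaks at starts leaned into the gene. Of the strongest peaks in each window, 1464 of 2232 (65.6%) covered the start itself. The peak reached a median of 840.5 bp upstream and 1363.5 bp downstream. The summit lay downstream of the start in 1473 genes (66.0%), at a median offset of 398 bp. Read along the gene in steps of 250 bp, SUZ12 covered the largest share of the 2232 genes at 0.50 kb into the gene (79.3%), EZH2 at 0.25 kb (78.0%), H3K4me3 at 0.25 kb (31.7%) and H3K27me3 at 0.75 and 1.0 kb alike (94.2%). The first of these values was partly set by the choice of genes, which required SUZ12 within 1 kb.

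**Figure D2:**
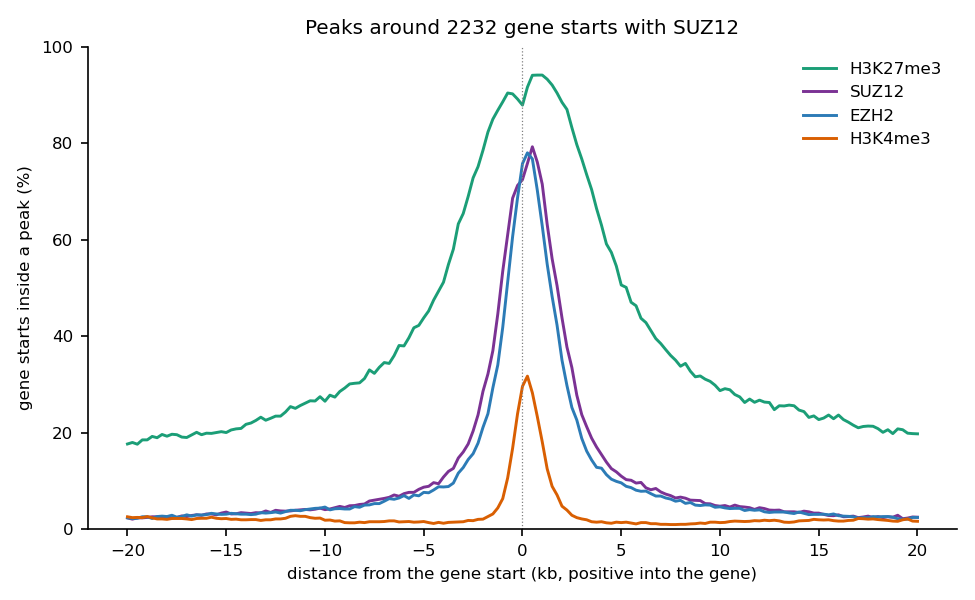
Share of the 2232 genes with SUZ12 at the start whose position at each distance (kb, positive into the gene) lay inside a peak of SUZ12, EZH2, H3K27me3 or H3K4me3. SUZ12 and EZH2 form narrow peaks with maxima of 79.3% and 78.0% just inside the gene, and H3K27me3 reaches 94.2% and falls off over a much longer distance.

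The other marks at these starts put most SUZ12 genes outside the active set. Of the 2232 genes, 2215 had H3K27me3 in the window (99.2%, beside a background of 24.3%) and 2075 had EZH2 (93.0%, beside 46.0%). H3K4me3 was present at 875 (39.2%, interval 37.2 to 41.2%), beside 52.1% of all genes and 54.0% of those without SUZ12. H3K27ac was present at 521 (23.3%), beside 52.2%, p300 at 231 (10.3%), beside 40.6%, and N-MYC at 265 (11.9%), beside 34.0%. Each of the 4 active features was thus listed less often at SUZ12 starts, and the Wilson intervals of genes with and without SUZ12 did not overlap.

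The overlap with active marks was not uniform. Of the 2232 genes, 1329 (59.5%) had neither H3K4me3 nor H3K27ac, 382 (17.1%) had H3K4me3 without H3K27ac, 493 (22.1%) had both and 28 (1.25%) had H3K27ac without H3K4me3. N-MYC was called at 209 of the 493 genes with both marks (42.4%), at 43 of 382 with H3K4me3 alone (11.3%) and at 12 of 1329 with neither (0.903%). All 1329 genes without active marks had H3K27me3, as did 476 of the 493 with both (96.6%). The median SUZ12 fold was 5.83 without active marks and 5.24 with both.

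A few very strong SUZ12 starts also carried strong active marks. Cbx8 had H3K4me3 at 22.4-fold and H3K27ac at 5.44-fold, Tal1 had 19.9- and 8.81-fold, and Bmi1 had 27.02- and 24.1-fold. The Cbx8 peak (chr11:119040868-119056670) lay almost wholly upstream of the gene (chr11:119036303-119040913, minus strand), and SUZ12 covered 19.2% of the gene. Tal1 is a factor of blood stem cells that is silent in normal mature thymocytes and is a known oncogene of T-cell leukaemia. Sox21 and Atf3, a stress-response factor, had H3K4me3 at 5.31- and 7.34-fold with no H3K27ac. Bub3 (17.4) and Aatf (15.8) belong to the same ranking only through neighbours. Their windows touch the edge of the peaks over Hmx2 with Hmx3 and over Lhx1, and no base of either gene lay under SUZ12. These are peaks of separate lists in bulk chromatin, so whether the marks sit on the same molecules was not tested.

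Peaks separated by gaps of up to 3 kb were joined into 4261 domains with a median length of 2.77 kb. Of these, 354 (8.31%) spanned 10 kb or more and held 36.6% of the length under SUZ12, 96 spanned 20 kb or more and 5 spanned 50 kb or more. The 354 wide domains touched 407 protein-coding genes, a background share of 1.86%, and 41.8% of those genes were in the developmental factor lists, which hold 1.59% of all protein-coding genes. A gene of the homeobox lists lay in 87 of them (24.6%). All 354 overlapped EZH2, the median share of a domain under EZH2 was 77.8% and under H3K27me3 100%. H3K4me3 was found anywhere in 96 (27.1%) and H3K27ac in 35 (9.89%). Most wide domains, 262, touched 1 protein-coding gene, 64 touched at least 2 and 28 touched none.

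The widest domain lay over the Hoxc cluster, 139 kb from Hoxc13 to Hoxc4 (chr15:102907639-103046638). Next among the Hox loci were Hoxa (69.3 kb, chr6:52208964-52278265), Evx2 with Hoxd (68.7 kb, chr2:74647266-74715963) and Hoxb (63.0 kb, chr11:96247270-96310239). Below these were Zic5 and Zic2 with the neighbour Pcca (47.1 kb), Gata4 (46.1 kb), Nr2f1 (44.2 kb), Hoxb13 with Ttll6 (44.1 kb), Hand2 of heart and limb (43.9 kb), BC107364 (43.9 kb) and, further down, Lhx2 (36.2 kb). Of the 15 widest domains, 3 held no protein-coding gene and are described with the RNA gene arrays.

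**Figure D3:**
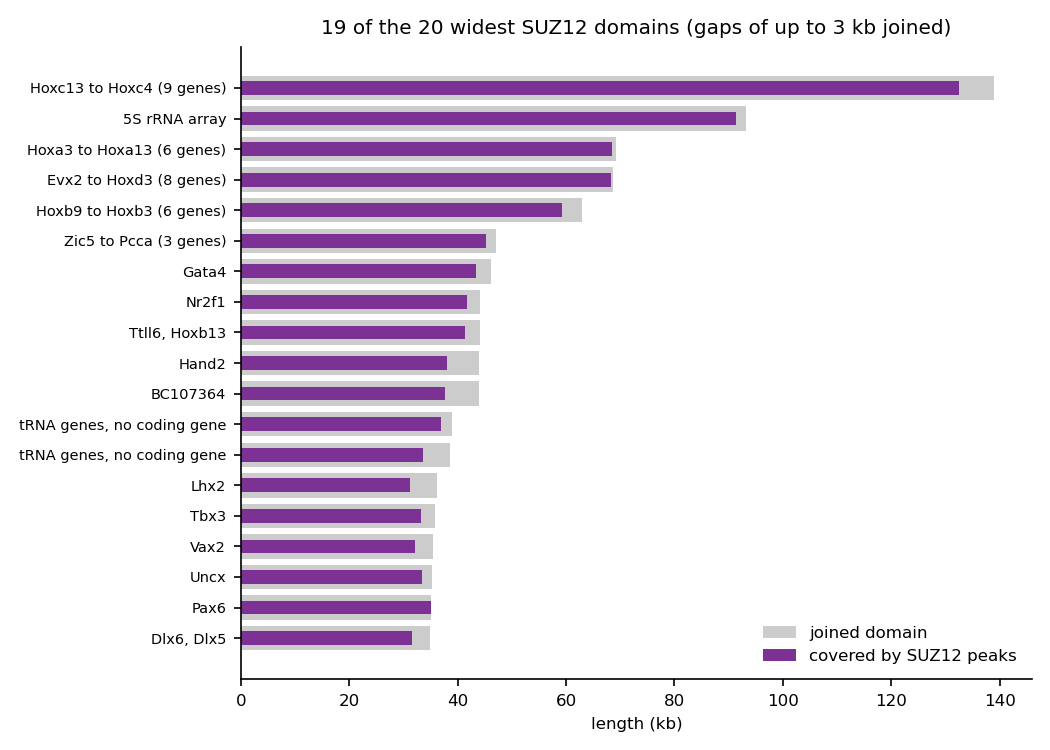
Length in kb of 19 of the 20 widest SUZ12 domains after joining gaps of up to 3 kb, named by the genes they touch. Grey bars are the joined domain and purple bars the length under SUZ12 peaks. The Hoxc domain of 139 kb is followed by a 93.2 kb domain over the 5S rRNA genes, ahead of the other Hox clusters.

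Among single peaks, the 10 widest included those over Hoxc (101 kb), Hoxd with Evx2 (64.8 kb), Hoxa (61.2 kb), Hoxb (39.8 kb), the 5S rRNA genes (35.8 kb), Pax6 (34.3 kb), Zic5 with Zic2 (31.9 kb), Vax2 of the eye (28.8 kb) and Neurod2 of neurons (28.8 kb). Their folds ran from 6.18 at the 5S rRNA genes to 19.2 at Hoxd.

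The 4 Hox clusters were not covered alike. Measured from the first to the last annotated gene, SUZ12 covered 98.8% of Hoxc, 78.2% of Hoxd, 54.4% of Hoxa and 52.5% of Hoxb. EZH2 gave 96.5, 71.8, 52.3 and 48.1% in the same order, and H3K27me3 gave 100, 97.3, 90.9 and 86.9%. H3K4me3 covered none of Hoxc, 3.27% of Hoxd, 1.25% of Hoxa and 1.997% of Hoxb. The Hoxb span of 173.9 kb runs out to Hoxb13, which lay in a SUZ12 domain apart from the other Hoxb genes. SUZ12 covered 93.9% of that domain, 94.1% of the domain from Hoxb9 to Hoxb3 and 50.1% of the one at Hoxb1. The Hoxb share of 52.5% also counts the bases between these domains. The 2 Hox genes of 39 without a SUZ12 call were Hoxa4 and Hoxa5, which sit side by side in the Hoxa cluster, and both lie among the 39 with H3K27me3.

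Complete coverage was reached by small genes of these loci. SUZ12 lay over at least 50% of the length of 439 protein-coding genes, a background share of 2.01%, and over the whole of 187. Among genes over 5 kb it covered all of Barhl2, Cdx2, Dlx1, Dlx4, Dmrta2, Emx2, En1, En2 and Evx2, all developmental factors, and of Arid3c. These are the first 10 in alphabetical order among the fully covered genes of that size. Arid3c, an ARID-domain factor, had H3K4me3 at 30.04-fold over the gene or within 1 kb, and no H3K4me3 peak in its start window.

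Several of the widest SUZ12 domains lay over arrays of RNA genes, which were looked at after values were seen. The second widest domain of all, 93.2 kb (chr8:123537272-123630466), spanned the array of 48 annotated 5S ribosomal RNA genes. All 48 lay under SUZ12, against 0 of the 15 rRNA genes on other chromosomes, so that 48 of 63 rRNA genes gave a share of 76.2%. Over the 83.3 kb from the first to the last of the 48, SUZ12 covered 99.7% with 3 peaks, EZH2 99.9% with 2 and H3K27me3 100% with 1. The highest folds were 8.46, 10.1 and 13.6, and H3K4me3, H3K27ac, p300 and N-MYC had no peak there.

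Transfer RNA genes were covered in blocks. SUZ12 lay over 60 of 408 tRNA genes, a share of 14.7% beside 8.95% of all annotated genes, with 21 on chromosome 13, 18 on chromosome 3 and 15 on chromosome 1. Of the 53 tRNA genes on chromosome 6 none was covered. On chromosome 3, a run of 3 wide domains (38.9, 38.6 and 43.9 kb, chr3:96323602-96466506 from end to end) held 18 tRNA genes, with SUZ12 folds of 13.3, 8.99 and 14.2. These are not all the same genes as the 18 under SUZ12 on that chromosome. The last of the latter lay beyond the run, and joined domains include gaps. H3K27me3 reached 18.2-, 14.03- and 20.4-fold in them, and H3K27ac was called in the first and the third, at 4.01- and 7.68-fold. A 24.6 kb domain on chromosome 1 held 15 tRNA genes with a SUZ12 fold of 5.27.

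Copies of 5S rRNA and tRNA genes are nearly identical, and how reads that match several copies were counted is not given in the sources used here. The extent of SUZ12 within such an array, and the copies that it touches, are therefore uncertain. Over all annotated genes the share with SUZ12 was 8.95%. Small nuclear RNA genes had SUZ12 at 11 of 1004 (1.10%), small nucleolar RNA genes at 3 of 1340 (0.224%) and pseudogenes at 74 of 9944 (0.744%). None of 394 V segments and 82 J segments of antigen receptors was covered, and such a low share is thus not particular to them.

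MicroRNA genes under SUZ12 were few but included whole families. A SUZ12 peak overlapped 44 of 1228 hairpins, a background share of 3.58%, with folds from 2.53 to 16.6 and a median of 7.25. Of the 44, 37 had EZH2, 43 had H3K27me3, 8 had H3K4me3 and 27 lay outside protein-coding genes, and 38 had a mature sequence in the table. The miR-196 genes, whose sequences are printed above, sit inside Hox clusters: Mir196a-2 in Hoxc (chr15:102973350-102973434, fold 16.6), Mir196b in Hoxa (chr6:52230081-52230165, 13.7) and Mir196a-1 in Hoxb (chr11:96265164-96265265, 7.03). The fold at Mir196a-2 is that of the 101 kb Hoxc peak, which also covers Mir615.

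The miR-9 genes lie far from Hox clusters, on 3 chromosomes, and each had a domain of its own. Mir9-1 (chr3:88215598-88215686) had a SUZ12 fold of 12.1, Mir9-3 (chr7:79505264-79505353) 8.60 and Mir9-2 (chr13:83738814-83738885) 7.31. The domains measured 26.4, 22.5 and 27.6 kb and held no protein-coding gene. miR-9 and miR-124 are microRNAs of neurons. The miR-124 genes Mir124a-3, Mir124a-1 and Mir124a-2 had 9.33, 8.31 and 5.47. Mir34b and Mir34c, targets of p53, share 1 peak of 7.51, and Mir203 of skin and Mir375 of endocrine cells had 5.32 and 4.39. These genes were chosen after values were seen.

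Outside protein-coding genes, most SUZ12 peaks were close to one. Of the 3715 peaks, 1721 (46.3%) had a protein-coding gene within 5 kb and 2244 (60.4%) had one within 10 kb, with a median distance of 6095 bp, and 174 (4.68%) lay over 100 kb away. H3K27me3 overlapped 98.8% of them, EZH2 48.8% and H3K4me3 4.31%. A gene for a long non-coding RNA (lncRNA) was overlapped by 951 of them. Of 9533 lncRNA genes with a listed start 612 had SUZ12 there, a background share of 6.42%, and 347 of these (56.7%) lay within 5 kb of a coding start with SUZ12. Coding genes without a listed start, such as Irx5, could not count here, so the 56.7% may be too low. Crnde, next to the Irx5 locus, had the highest value, 19.4, and was named after its value was seen. That value is the fold of the peak over Irx5 and not a separate measurement.

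The 5 peaks farthest from any protein-coding gene were in 3 places. A row of 3 peaks of 310 to 413 bp lay on chromosome 2 about 1210 kb from Gata3, the nearest gene, at folds of 3.38, 4.24 and 3.62, with H3K27me3 and without EZH2. A wider peak of 2962 bp and 6.20-fold, 906 kb from Gata3 (chr2:8948573-8951534), had both. The fifth lay on chromosome 18, 904 kb from Socs6, at 4.11-fold, with both.

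H3K27me3 extended far beyond SUZ12. With the same joining, H3K27me3 formed 24143 regions, of which 3567 (14.8%) held a SUZ12 domain. Regions with SUZ12 had a median length of 13.99 kb and those without 2.10 kb. Of the 358 H3K27me3 regions of 50 kb or more, 303 (84.6%) held a SUZ12 domain. A longer region has more room for a peak, and that part of the difference was not tested.

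In sequence, starts with SUZ12, with or without H3K4me3, resembled starts with H3K4me3 and no SUZ12 more than starts with neither feature. The SUZ12 group was not split by H3K4me3, which 39.2% of the genes with SUZ12 at the start also had. Part of the likeness may therefore be built into the grouping. In the 300 bases from 250 before to 50 after a start, the 2617 starts with SUZ12 had a median GC content of 64.7% and a median of 22 CpG. The 9924 starts without SUZ12 and with H3K4me3 had 61.3% and 22 CpG, and the 8721 with neither had 48.0% and 3 CpG. At least 10 CpG were present in 84.4%, 86.7% and 14.4% of the 3 groups. Of the printed promoters, that of Lhx9 with its 4 CG is near the poor end of the SUZ12 group, whose 10th percentile is 7 CpG in the full 300 bases.

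Sorted by CpG count, the share of starts with SUZ12 was 0.455% with 0 to 1 CpG, 3.26% with 2 to 4, 8.79% with 5 to 9, 16.4 to 16.5% in the classes from 10 to 29 and 23.3% with 30 or more. H3K4me3 went from 3.39% to 85.6% over the same classes. Among 4 short motifs searched on both strands, the GC box GGGCGG was in 69.0% of SUZ12 starts and 66.5% of starts with H3K4me3 and no SUZ12. It was in 16.3% of those with neither and 46.2% of all 21262 starts. The E-box CACGTG was in 7.91, 10.9, 4.37 and 7.84%, GAGAGA in 23.9, 19.6, 25.1 and 22.4%, and TATAAA in 7.83, 5.91, 21.6 and 12.6% of the same groups. A match is a description of the letters and not a binding site, and GGGCGG holds a CG itself.

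**Figure D4:**
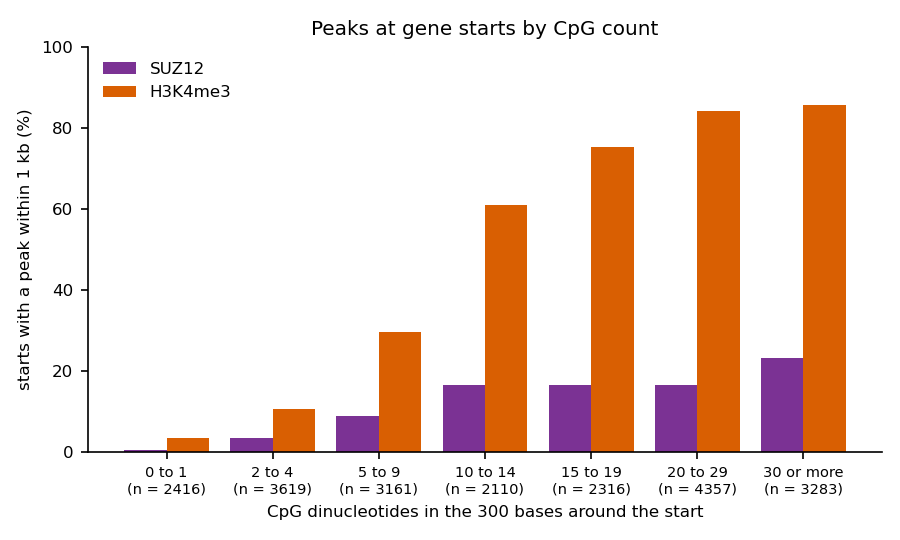
Share of protein-coding gene starts with a peak within 1 kb, by the number of CpG dinucleotides in the 300 bases around the start, for SUZ12 and H3K4me3. The SUZ12 share goes from 0.455% to 23.3% with a plateau from 10 to 29 CpG, and the H3K4me3 share goes from 3.39% to 85.6%.

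Chromosomes differed in SUZ12 density by about a factor of 2 among autosomes, and the X stood far below. Chromosome 11 had the most peaks per 100 protein-coding genes, 68.1, and chromosome 7 the fewest of the autosomes, 34.3, beside 50.7 over all chromosomes. Chromosome 11 carries the Hoxb cluster and had 1096 peaks, and it also led per length, with 8.99 peaks per Mb. Genes of olfactory and vomeronasal receptors, nearly free of SUZ12, made up 20.4% of the genes of chromosome 7 and 5.16% of those of chromosome 11. Without them the densities were 43.1 and 71.8, the highest was chromosome 2 with 73.3 and the lowest chromosome 17 with 41.6. The ratio of highest to lowest was 1.99 with all genes and 1.76 without receptor genes.

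The X chromosome had 125 SUZ12 peaks, 12.9 per 100 protein-coding genes and 0.732 per Mb, below every autosome. SUZ12 was at the start of 40 of 817 X-linked genes with a listed start (4.90%). EZH2 was also low on the X, with 24.7 peaks per 100 genes where chromosome 7 had 59.7, and H3K27me3 had 9.76 peaks per Mb where the lowest autosome had 32.7. H3K4me3 was at the start of 36.1% of X-linked genes, against 41.5% or more on the autosomes with listed starts. The Y chromosome had no SUZ12 peak. The number of X and Y copies in these cells is not given in the sources used here, and its part in these values was not tested.

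**Figure D5:**
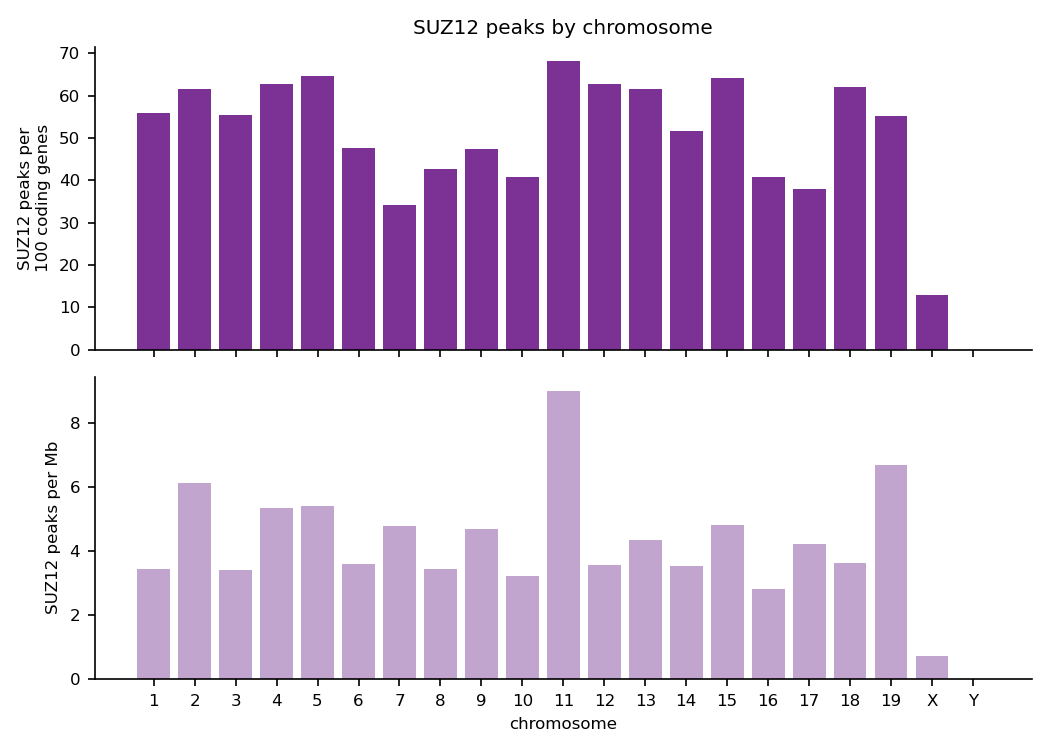
SUZ12 peaks per 100 protein-coding genes (top) and per Mb (bottom) for chromosomes 1 to 19, X and Y. Chromosome 11 is highest on both scales with 68.1 and 8.99, the X has 12.9 and 0.732, and the Y has none.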

How the data were processed

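The 7 deposited peak lists, 1 per antibody, come from ChIPmentation libraries, per the labels' protocols. The submitters' processing notes name FastQC, Bowtie2, SAMtools, MACS2 and deepTools and the builds mm10 and GRCm38, without versions or roles. The use of the 2 inputs, pooling and the handling of multi-mapping reads are not given in the sources used here. The fold enrichment is a linear ratio as deposited. The p-value and q-value are deposited as −log10 values, and the smallest −log10 q of the SUZ12 list was 2.00. The whole-number score and the summit offset were deposited by the authors too, and the score entered no result. The number of reads, and so the depth, is unknown.

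Peaks were compared by overlap of at least 1 bp with RefSeq genes and listed starts of GRCm38.p6, by start windows of 1 kb on either side, in Python 3.11.15 with pandas 2.3.3 and scipy 1.17.1. A gene's fold is the highest fold of any peak that overlaps its window, so neighbours can share a peak, and gene folds refer to the gene and 1 kb on either side. The annotated span of a chromosome runs from its first to its last annotated gene. Peak joining used gaps of up to 3 kb. Shares have 95% Wilson intervals, and no test was run, as there is 1 library per antibody. Exons and introns were not analysed here.

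The members and the 44 gene lists were chosen with earlier results of these data known. Named genes were up to 4 per list by start fold (all where up to 5 carried SUZ12), all genes of the PRC2, CDK inhibitor, T-cell factor and CD3 lists, the 15 widest domains, the 10 widest peaks, the 10 strongest starts, the 10 most covered genes over 5 kb, the 5 farthest peaks and the 5 strongest starts with H3K4me3 or H3K27ac. Genes named beyond this were chosen after their values were seen. Overlap counting was tested on planted peaks. A few genes within these rules are not reported here.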

Additional observations from a re-analysis of the deposited data

How the results depend on the processing

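Each setting was changed alone, and the cause of a shift beyond its own construction was not tested. The share of SUZ12 peaks at a protein-coding start was 28.4%, and it was 34.1% with peaks of −log10 q of at least 5, 39.0% with peaks of at least 4-fold, 22.9% with a window of 500 bp, 40.0% with 2.5 kb, 23.2% with the summit required inside the window and 32.2% with lncRNA starts added. The share outside genes, 33.5%, was 29.3, 26.1, 35.3, 29.2 and 36.6% under the first 5 of these settings and 23.4% when all annotated genes counted. With both ends of genes without a listed start as windows, added after seeing the data, the shares were 37.7% and 31.6%. The 2232 genes with SUZ12 at the start ranged from 1813 to 2987, within 1.5 times. The 354 wide domains became 163 without joining and otherwise ranged from 248 to 492, with 348 when the 5S rRNA and tRNA domains were left out. The share of SUZ12 starts with H3K4me3 was 35.6% with H3K4me3 peaks of at least 4-fold. The ratio of densest to sparsest autosome, 1.99, was 1.76 without receptor genes, and ranged from 1.85 to 2.10 otherwise, where the extremes were not always chromosomes 11 and 7. No paired analysis was possible because each antibody had 1 library and no result comes from a test. Depth is unknown, so weak sites may be missing from any list.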

Other observations

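Imprinted genes, which are expressed from the allele of 1 parent, were listed after values were seen. Of 37 such protein-coding genes, 14 (37.8%) carried SUZ12 over the gene or within 1 kb, beside 15.7% of all protein-coding genes. They were Ascl2, Calcr, Cdkn1c, Dlk1, Gnas, Grb10, Igf2, Kcnq1, Klf14, Mest, Phlda2, Plagl1, Slc22a18 and Zdbf2. Among the 23 without a call were Igf2r, Peg3, Peg10, Rtl1, Snrpn and Ube3a. Ascl2, Cdkn1c, Kcnq1, Phlda2 and Slc22a18 lie in 1 imprinted region of chromosome 7, so the 14 are not independent.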
